A study of Mus musculus with 6 samples.

Results

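The genes of DNA replication and S phase form a set of 53 named genes, all of which were found, each as 1 Ensembl row, among the 45193 rows of the raw count table. They were listed by symbol from knowledge of the replication machinery, with earlier results of these data known, and no measured value enters the rule. They were measured by RNA sequencing of polyA RNA in 3 libraries of RXR knockout and 3 libraries of wild-type (WT) mouse bone marrow-derived macrophages, cells grown from marrow precursors. Knockout cells came from C57BL/6J mice whose genotype is given as RXRafl/flLysMCre RXRb-/-: the Rxra alleles are flanked by loxP sites, Cre recombinase is driven by the lysozyme M gene of myeloid cells, and Rxrb is inactivated. WT cells came from C57BL/6J mice, for which no Cre or lysozyme change is described. Cells of both genotypes spent 6 days in culture with 20% serum and 30% L929-conditioned medium, which supplies the macrophage growth factor CSF-1, were changed to serum-free medium, and received only the vehicle DMSO for 3 hours. The sources used here do not give the age or sex of the mice or the animals behind each replicate, so a p-value here rests only on how much these libraries spread, which may be technical.

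Replication starts when the origin recognition complex, with CDC6 and CDT1, loads the ring-shaped helicase MCM2 to MCM7 onto DNA, a step called licensing. In S phase the helicase is activated by CDC45 and the GINS complex, polymerases copy the strands behind it on the sliding clamp PCNA, and enzymes of nucleotide synthesis supply the precursors. Many of these genes are targets of E2F transcription factors. Macrophages in culture with CSF-1 can divide, so transcripts of this machinery are found in part of such cells.

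Total counts were between 17250051 and 25091019 in knockout libraries and between 7880320 and 14957253 in WT libraries, so every knockout library was deeper than every WT library. Rxrb had 8.14, 7.98 and 11.7 CPM (reads scaled to a common total with edgeR's TMM factors) in knockout libraries, against 64.7, 66.9 and 68.4 CPM in WT libraries. Rxra had 113, 104 and 111 CPM in knockout libraries and 97.0, 110 and 105 CPM in WT libraries, which says nothing on the part between the loxP sites, since reads of the whole gene are counted. Lyz2, the lysozyme M gene whose locus carries Cre, had 23.1 to 35.1 CPM in knockout libraries against 14747 to 15909 CPM in WT libraries, so the loss of RXR, the loss of Lyz2 and the presence of Cre cannot be told apart as causes. Among 10 macrophage markers there were 3 that rose, 3 that fell and 4 short of the threshold, and Csf1r, the CSF-1 receptor gene, with the most reads of them, had 2676 to 3058 CPM in knockout libraries and 2093 to 2370 CPM in WT libraries.

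Replication genes were lower in RXR knockout macrophages, by amounts below 2-fold. Of the 53 genes, each with enough reads to be tested, 32 fell, 0 rose and 21 stayed short of the threshold (edgeR quasi-likelihood F test across 12011 genes, Benjamini-Hochberg adjusted p under 0.05). Across all 12011 tested genes, 9.61% fell and 9.77% rose. No member rose at an unadjusted p under 0.05 either, nor by DESeq2 or limma. The log2 fold change was below 0 in 52 of the 53, with a median of -0.41 and a range from -0.95 (Tk1) to 0.02 (Brca2), where the median of all tested genes was -0.005. In 38 members the highest knockout library was below the lowest WT library, in 15 the groups overlapped, and among all tested genes 17.9% were apart in this direction. These are bulk samples, in which fewer dividing cells and less of these transcripts per cell cannot be told apart.

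Summed over the 53 genes, the level was 3030, 3127 and 2967 CPM in knockout libraries and 3962, 3927 and 3696 CPM in WT libraries. The knockout libraries thus all lay below the WT libraries, and the ratio of the means was 0.788. Nucleotide supply genes had the lowest ratio of summed levels among the roles (0.646) and DNA polymerase genes the highest (0.896).

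**Figure D1:**
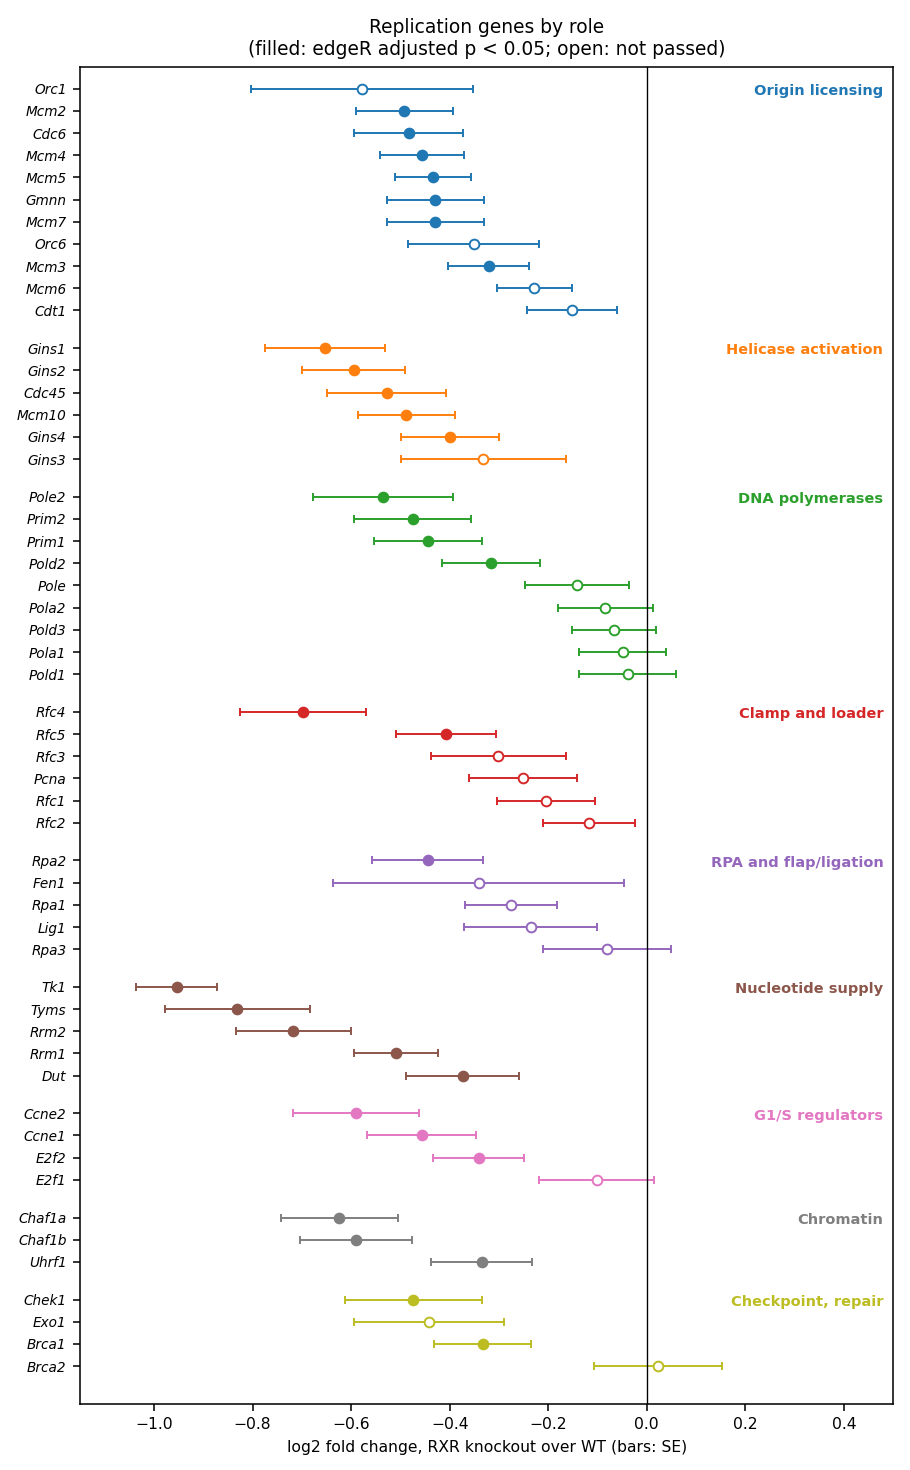
Log2 fold change of each of the 53 replication genes, RXR knockout over WT (x axis), with its SE as a bar, grouped by role on the y axis. Filled points passed the edgeR test; 32 are filled, all of them left of 0, and Brca2 is the 1 gene right of 0.

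**Figure D2:**
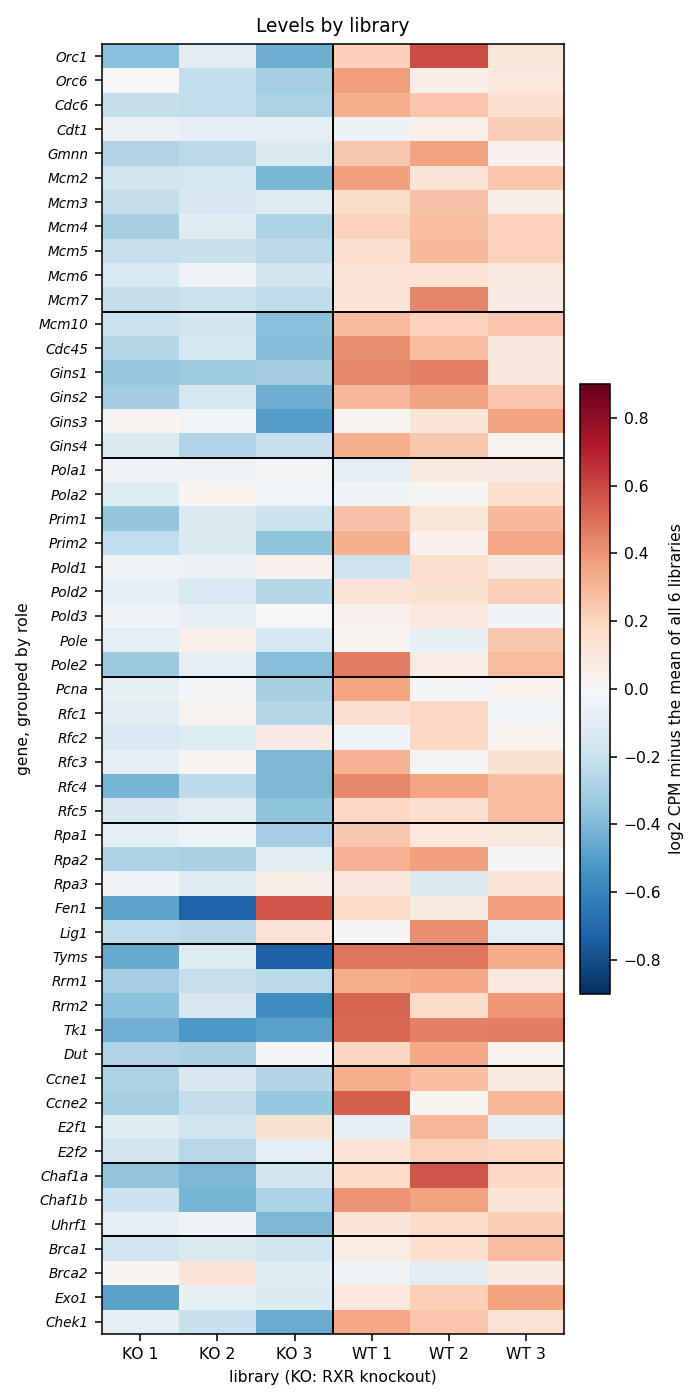
Level of each gene (rows, grouped by role as in the text) in each library (columns, the 3 RXR knockout libraries left of the 3 WT libraries), as log2 CPM minus the gene's mean over the 6 libraries. Most rows are blue in the knockout and red in WT, and rows of the polymerase catalytic subunits Pola1 and Pold1 are pale throughout.

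Promoter sequences are shown for 7 members because the known regulators of this set act there, and because they span genes that fell and genes that did not pass. They come from RefSeq on build GRCm38.p6, cover 250 bases before to 50 bases after the annotated start, and run 5′ to 3′ on the gene's strand. Capitals mark an E2F motif (TTTCCCGC, TTTCGCGC, TTTGCCGC or TTTGGCGC, on either strand) or a CCAAT box (CCAAT on either strand), the element bound by NF-Y. Tk1, where neither motif was found, fell most, Brca2 had the largest adjusted p, Cdc6, Cdt1 and E2f2 follow in alphabetical order among those with an E2F motif, and Mcm5 and Mcm6, chosen after their values were seen, are subunits of 1 helicase of which one fell and the other did not pass.
Tk1 (chr11:117825965-117826264, minus strand): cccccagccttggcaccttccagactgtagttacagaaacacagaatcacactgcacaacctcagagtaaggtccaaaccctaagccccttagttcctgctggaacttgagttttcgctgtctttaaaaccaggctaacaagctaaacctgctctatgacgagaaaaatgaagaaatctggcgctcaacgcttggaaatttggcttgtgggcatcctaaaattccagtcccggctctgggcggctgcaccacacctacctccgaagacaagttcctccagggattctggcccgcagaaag
Brca2 (chr5:150522371-150522670, plus strand): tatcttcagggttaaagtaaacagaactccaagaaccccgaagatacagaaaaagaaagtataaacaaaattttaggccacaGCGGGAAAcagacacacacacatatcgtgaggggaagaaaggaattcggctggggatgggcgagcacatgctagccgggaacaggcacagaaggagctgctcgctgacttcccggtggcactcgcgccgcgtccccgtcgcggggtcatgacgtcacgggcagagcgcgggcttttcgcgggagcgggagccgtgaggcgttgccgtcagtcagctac
Cdc6 (chr11:98907901-98908200, plus strand): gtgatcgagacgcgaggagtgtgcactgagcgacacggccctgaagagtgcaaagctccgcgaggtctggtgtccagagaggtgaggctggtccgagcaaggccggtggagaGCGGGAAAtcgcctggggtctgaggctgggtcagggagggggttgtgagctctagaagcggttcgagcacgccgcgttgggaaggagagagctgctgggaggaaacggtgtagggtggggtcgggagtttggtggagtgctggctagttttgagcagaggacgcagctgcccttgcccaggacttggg
Cdt1 (chr8:122567765-122568064, plus strand): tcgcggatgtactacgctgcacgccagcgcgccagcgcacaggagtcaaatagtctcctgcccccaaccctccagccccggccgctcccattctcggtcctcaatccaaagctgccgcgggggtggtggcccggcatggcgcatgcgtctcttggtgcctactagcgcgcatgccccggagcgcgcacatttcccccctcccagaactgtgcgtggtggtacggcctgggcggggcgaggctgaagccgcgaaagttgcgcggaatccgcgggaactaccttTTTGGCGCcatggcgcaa
E2f2 (chr4:136172024-136172323, plus strand): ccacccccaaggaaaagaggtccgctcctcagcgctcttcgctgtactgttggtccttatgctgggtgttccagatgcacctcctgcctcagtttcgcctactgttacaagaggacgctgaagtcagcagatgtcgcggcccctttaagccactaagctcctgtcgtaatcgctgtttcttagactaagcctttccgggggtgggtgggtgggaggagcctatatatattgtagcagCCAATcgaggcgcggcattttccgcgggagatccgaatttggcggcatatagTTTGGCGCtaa
Mcm5 (chr8:75109259-75109558, plus strand): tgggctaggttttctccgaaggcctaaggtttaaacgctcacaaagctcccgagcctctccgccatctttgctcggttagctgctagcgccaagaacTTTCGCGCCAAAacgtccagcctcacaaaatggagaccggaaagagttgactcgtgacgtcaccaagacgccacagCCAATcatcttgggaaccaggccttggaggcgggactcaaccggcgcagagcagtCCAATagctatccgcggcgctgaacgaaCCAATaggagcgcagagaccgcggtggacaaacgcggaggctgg
Mcm6 (chr1:128359656-128359955, minus strand): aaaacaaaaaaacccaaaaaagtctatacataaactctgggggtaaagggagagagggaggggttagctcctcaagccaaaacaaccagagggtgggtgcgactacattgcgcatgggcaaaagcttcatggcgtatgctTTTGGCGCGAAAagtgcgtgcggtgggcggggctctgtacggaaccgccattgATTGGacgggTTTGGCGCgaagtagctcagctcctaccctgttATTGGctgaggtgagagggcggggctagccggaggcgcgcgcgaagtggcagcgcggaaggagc

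Promoters on chromosome 18 were not used in any of these shares. Promoters were in the table for 43 of the 53 genes, with 50 promoters in all. An E2F motif stood in 17 of these 50 promoters (34%), against 2.26% of all 32851 promoters of the same length and 4.04% of the promoters of tested genes. The CCAAT box stood in 56% of the members' promoters, in 37.8% of those of tested genes and in 37.4% of all promoters. The cell cycle homology region (TTTGAA or TTCGAA on either strand), which is known from genes of late cell cycle, stood in 16% of them, in 14% of the promoters of tested genes and in 19.2% of all promoters, while it stood in 74.3% of the 35 promoters of mitosis genes. In Mcm5 and in Mcm6 an E2F motif on each strand overlapped to form 1 capital run, and a promoter was counted once however many motifs it held. A direct repeat of AGGTCA with a spacer of 0 to 5 bases is the kind of element that RXR pairs bind. As spelled here, it stood in none of the 50 promoters, in 0.0338% of those of tested genes and in 0.0852% of all promoters. It is so rare that 50 promoters of any genes would seldom hold it, so its absence says nothing about the set. Of the 17 genes with an E2F motif 7 fell, and of the 26 genes without one 18 fell, a description with no test.

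Licensing genes were lower in all 11 cases, with no overlap of the genotypes, and 7 of them passed the test. Among all tested genes 17.9% were apart in this direction and 9.61% fell. Mcm5, a helicase subunit gene with the smallest adjusted p among them, had 142, 143 and 138 CPM in knockout libraries and 181, 201 and 189 CPM in WT libraries (log2 fold change -0.43, SE 0.077, edgeR adjusted p = 0.00172). Mcm2 had 73.0, 73.5 and 61.5 CPM in knockout libraries and 106, 89.2 and 97.2 CPM in WT libraries (-0.49, SE 0.099). The groups did not overlap for either gene. Mcm4 had 68.3, 77.8 and 69.2 CPM in knockout libraries and 97.1, 101 and 97.2 CPM in WT libraries (-0.46, SE 0.085). Mcm7 had 95.8, 97.3 and 94.96 CPM in knockout libraries, a narrow range, against 121, 151 and 117 CPM in WT libraries (-0.43, SE 0.098). Mcm3 fell less (116, 121 and 125 CPM in knockout libraries, 151, 161 and 140 CPM in WT libraries, log2 fold change -0.32, SE 0.082). Mcm6 stood just short of the threshold. It had 236, 254 and 230 CPM in knockout libraries and 284, 284 and 275 CPM in WT libraries (-0.23, SE 0.076, edgeR adjusted p = 0.0537), again with no overlap, and it passed without WT replicate 3 (edgeR adjusted p = 0.0416).

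Per kilobase of exon, Mcm6 was the most abundant helicase subunit gene and Mcm2 and Mcm4 the least, in both genotypes. Mcm6 averaged 54.8 ± 2.86 CPM per kb in knockout libraries and 64.2 ± 1.20 in WT libraries (SD, n = 3 each). Mcm4 averaged 20.0 ± 1.47 CPM per kb in knockout libraries and 27.5 ± 0.670 in WT libraries. The order was Mcm6, Mcm5, Mcm3, Mcm7, Mcm2, Mcm4 in both genotypes, but the libraries of Mcm5 (40.8 ± 0.707 in the knockout, 55.0 ± 2.89 in WT) and Mcm3 (39.8 ± 1.496 in the knockout, 49.8 ± 3.46 in WT) overlapped, as did those of Mcm2 and Mcm4 in each genotype and those of Mcm3 and Mcm7 in WT. The ratio of Mcm6 to Mcm2 CPM was 3.47 ± 0.256 in knockout libraries and 2.90 ± 0.259 in WT libraries, and the groups did not overlap; this ratio was chosen after the values were seen and was not tested.

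**Figure D3:**
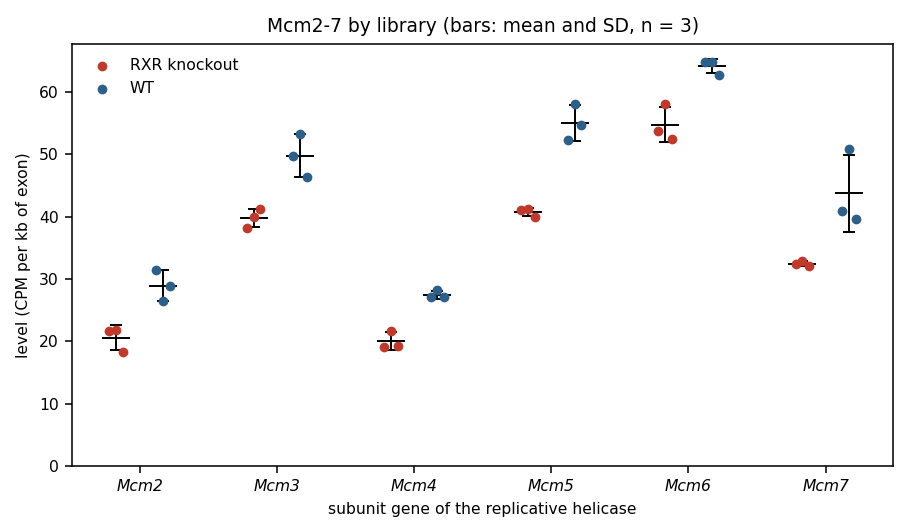
Level of each helicase subunit gene as CPM per kilobase of exon (y axis, from 0), with 1 point for each library, RXR knockout in red left of WT in blue, and the mean and SD of 3 libraries in black. In each of the 6 genes all knockout points lie below all WT points, with Mcm6 at 54.8 in the knockout and 64.2 in WT.

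The remaining licensing genes load the helicase or restrain that loading. Cdc6, the loader gene, fell, with 14.6, 14.5 and 13.9 CPM in knockout libraries and 21.3, 20.2 and 18.9 CPM in WT libraries (log2 fold change -0.48, SE 0.111, edgeR adjusted p = 0.0089). Gmnn, which encodes geminin, the inhibitor of CDT1, fell, with 55.4, 56.4 and 61.0 CPM in knockout libraries and 79.1, 85.7 and 68.5 CPM in WT libraries (-0.43, SE 0.098). Cdt1 itself had 58.9, 58.3 and 57.5 CPM in knockout libraries and 59.1, 63.1 and 71.3 CPM in WT libraries (-0.15, edgeR adjusted p = 0.278). Knockout and WT ranges of Cdt1 were apart by a margin smaller than the spread within WT. The ratio of Gmnn to Cdt1 CPM was 0.941, 0.968 and 1.06 in knockout libraries and 1.34, 1.36 and 0.961 in WT libraries, so the groups overlapped; this ratio and that of Rrm2 to Rrm1 were chosen after the values were seen and were not tested. Of the origin recognition complex, Orc1 (2.499 to 3.18 CPM in knockout libraries, 3.66 to 5.09 CPM in WT libraries, log2 fold change -0.58) and Orc6 (13.0 to 16.1 CPM in knockout libraries, 16.7 to 20.9 CPM in WT libraries, -0.35) did not pass. Orc1 rests on 171 reads over the knockout libraries and 133 over the WT libraries, the fewest in the set.

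Genes of helicase activation fell in 5 of 6 cases, against 9.61% of all tested genes. Gins2, a GINS subunit gene, had 24.8, 27.6 and 22.7 CPM in knockout libraries and 37.7, 39.5 and 36.6 CPM in WT libraries (log2 fold change -0.59, SE 0.105, edgeR adjusted p = 0.00166). Gins1 had 15.2, 15.4 and 15.5 CPM in knockout libraries and 26.0, 26.5 and 20.7 CPM in WT libraries (-0.65, SE 0.122). Both showed a gap between the genotypes, and the same held for Gins4, the most abundant GINS gene per kilobase (41.6 to 46.2 CPM in knockout libraries, 51.2 to 63.2 CPM in WT libraries, -0.40). Gins3 did not pass (10.3, 9.92 and 7.17 CPM in knockout libraries, 10.3, 10.96 and 13.0 CPM in WT libraries, -0.33, edgeR adjusted p = 0.19), and its groups overlapped. Cdc45, the helicase cofactor gene, fell to 16.4 to 19.3 CPM in knockout libraries, against 23.1 to 28.7 CPM in WT libraries (-0.53, SE 0.12). Mcm10, which helps to activate the helicase, fell to 25.3 to 29.2 CPM in knockout libraries, against 37.8 to 39.8 CPM in WT libraries (-0.49, SE 0.099).

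In the main fit each polymerase complex held genes that fell and genes that did not pass. The catalytic subunit genes of polymerases alpha, delta and epsilon did not pass. Pola1 had 50.4, 50.3 and 51.1 CPM in knockout libraries and 48.5, 54.4 and 54.1 CPM in WT libraries (log2 fold change -0.05, SE 0.088). Pold1 had 71.8, 70.8 and 75.6 CPM in knockout libraries and 64.6, 82.2 and 77.5 CPM in WT libraries (-0.04, SE 0.098, edgeR adjusted p = 0.827). Their groups overlapped, as did those of Pole (34.8 to 40.0 CPM in knockout libraries, 37.0 to 45.8 CPM in WT libraries, -0.14). By contrast, both primase genes fell: Prim1, which makes the RNA primer, had 18.1, 21.04 and 20.2 CPM in knockout libraries and 27.6, 24.8 and 28.1 CPM in WT libraries (-0.44, SE 0.11, edgeR adjusted p = 0.0134). Prim2, its partner, had 19.7, 21.1 and 17.9 CPM in knockout libraries and 28.6, 23.6 and 29.1 CPM in WT libraries (-0.47, SE 0.119). Pole2, the second subunit of polymerase epsilon, fell to 9.72 to 12.0 CPM in knockout libraries, against 13.3 to 17.4 CPM in WT libraries (-0.54), and Pold2, of polymerase delta, to 23.6 to 26.8 CPM in knockout libraries, against 30.8 to 32.7 CPM in WT libraries (-0.32). The accessory subunit genes Pola2 (-0.08) and Pold3 (-0.07) did not pass. Among replication genes outside the set, Pole3 (-0.56) and Pold4 (-0.51) fell and Pole4 (-0.15) did not pass; these 3 were chosen after their values were seen, and Pold4 lost its call without WT replicate 1. The split within a complex depended on the fit. Pold2 (edgeR adjusted p = 0.0432) lost its call whichever library was left out. Prim1, Prim2 and Pole2 lost theirs without knockout replicate 1 and without WT replicate 1. With length and GC offsets Pole passed (-0.34, edgeR adjusted p = 0.0218) and Pole2 did not (-0.40, edgeR adjusted p = 0.0573). The difference between fold changes of subunits was not tested.

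The clamp gene did not pass, although it is the most abundant of the set per kilobase of exon (324 CPM per kb in knockout libraries and 386 in WT libraries). Pcna had 510, 531 and 435 CPM in knockout libraries and 683, 531 and 543 CPM in WT libraries (log2 fold change -0.25, SE 0.109, edgeR adjusted p = 0.13), and the groups overlapped. A processed copy, Pcna-ps2, held 242 reads over all libraries, against 30161 and 18970 Pcna reads over the knockout and the WT libraries. The clamp is loaded by the complex of RFC1 to RFC5. Of its genes Rfc4 fell (8.84, 10.04 and 8.96 CPM in knockout libraries, 15.98, 15.1 and 14.3 CPM in WT libraries, -0.70, SE 0.128, edgeR adjusted p = 0.00215). Rfc5 fell as well (29.2 to 35.0 CPM in knockout libraries, 41.7 to 45.6 CPM in WT libraries, -0.41). Rfc1 (-0.20), Rfc2 (-0.12, edgeR adjusted p = 0.422) and Rfc3 (-0.30) did not pass and had overlapping groups.

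Genes for single-strand binding and for joining Okazaki fragments mostly did not pass. Rpa2, the middle subunit of replication protein A, fell (39.1, 38.7 and 44.3 CPM in knockout libraries, 58.9, 61.3 and 46.8 CPM in WT libraries, log2 fold change -0.45, SE 0.113, edgeR adjusted p = 0.0151). The large subunit gene Rpa1 had 86.8 to 105 CPM in knockout libraries and 113 to 127 CPM in WT libraries, with no overlap (-0.28, edgeR adjusted p = 0.0551), and passed without WT replicate 3 (edgeR adjusted p = 0.0462). Rpa3 did not pass and its groups overlapped (-0.08, edgeR adjusted p = 0.718). Lig1, the ligase of lagging-strand synthesis, varied within the genotypes, with 133, 131 and 170 CPM in knockout libraries and 157, 208 and 147 CPM in WT libraries (-0.24, edgeR adjusted p = 0.252). Fen1, the flap nuclease gene, had 4.42, 3.73 and 9.13 CPM in knockout libraries and 6.95, 6.52 and 7.97 CPM in WT libraries (-0.34). It passed without knockout replicate 3 (edgeR adjusted p = 0.00935). Its level is uncertain, since 1909 of its exon bases overlap an antisense gene on the other strand and the strand setting of the counting is not given.

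All 5 nucleotide supply genes fell, against 9.61% of all tested genes, and the 3 largest falls of the set were among them. Tk1, which encodes thymidine kinase of the salvage pathway, had 46.8, 43.9 and 45.1 CPM in knockout libraries and 90.3, 86.1 and 86.7 CPM in WT libraries (log2 fold change -0.95, SE 0.082, edgeR adjusted p = 6.13e-06), or 51.6% of the WT level. Each genotype stayed within a narrow range with a wide gap between them. Tyms, which encodes thymidylate synthase, the enzyme that makes dTMP anew, had 14.1, 17.9 and 11.7 CPM in knockout libraries and 27.1, 27.0 and 24.4 CPM in WT libraries (-0.83, SE 0.147, edgeR adjusted p = 0.00169). Ribonucleotide reductase turns ribonucleotides into deoxyribonucleotides. Its large subunit gene Rrm1 had 162, 173 and 169 CPM in knockout libraries and 250, 253 and 214 CPM in WT libraries (-0.51, SE 0.086). The S phase subunit gene Rrm2 had 76.0, 88.6 and 66.5 CPM in knockout libraries and 141, 110 and 129 CPM in WT libraries (-0.72, SE 0.117, edgeR adjusted p = 9.45e-04). The ratio of Rrm2 to Rrm1 CPM overlapped between the genotypes (0.394 to 0.513 in knockout libraries, 0.436 to 0.602 in WT libraries). Dut, whose product removes dUTP, fell the least of the 5, with 30.6, 30.1 and 36.7 CPM in knockout libraries and 42.2, 46.7 and 37.7 CPM in WT libraries (-0.37, SE 0.114, edgeR adjusted p = 0.0367).

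Both E-type cyclin genes fell while E2f1 did not pass. Ccne2 had 20.9, 22.1 and 20.3 CPM in knockout libraries and 37.2, 26.1 and 31.7 CPM in WT libraries (log2 fold change -0.59, SE 0.127, edgeR adjusted p = 0.00589). Ccne1 had 18.8, 20.7 and 19.0 CPM in knockout libraries and 28.7, 27.6 and 24.4 CPM in WT libraries (-0.46, SE 0.111). Cyclin E activates CDK2 at the entry into S phase. E2f2, an activating E2F gene, fell to 32.8 to 36.5 CPM in knockout libraries, against 42.1 to 44.9 CPM in WT libraries (-0.34). E2f1, the other activating E2F gene in the set and the most abundant per kilobase in this role, had 89.6, 85.4 and 106 CPM in knockout libraries and 91.9, 119 and 91.6 CPM in WT libraries (-0.10, SE 0.116, edgeR adjusted p = 0.587), with overlapping groups.

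Chromatin genes of the replication fork fell in all 3 cases in the main fit, against 9.61% of all tested genes. Chaf1a, the large subunit of the histone chaperone CAF-1, had 34.4, 33.2 and 39.2 CPM in knockout libraries and 49.9, 65.2 and 50.1 CPM in WT libraries (log2 fold change -0.62, SE 0.119, edgeR adjusted p = 0.00271). Chaf1b, its partner, had 25.5, 21.8 and 24.0 CPM in knockout libraries and 38.6, 37.4 and 31.6 CPM in WT libraries (-0.59, SE 0.113). Chaf1a shares 4648 exon bases with Ubxn6 on the other strand, so its level is uncertain, while no such overlap was found for Chaf1b. Uhrf1, which brings the maintenance DNA methyltransferase to newly copied DNA, had 78.2, 81.0 and 62.6 CPM in knockout libraries and 89.5, 93.4 and 96.8 CPM in WT libraries (-0.34, SE 0.103, edgeR adjusted p = 0.0371). The Uhrf1 call held without knockout replicate 2 and was lost without any other library. It was also lost with the replicate number as a block (edgeR adjusted p = 0.0962).

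Checkpoint and repair genes were split. Chek1, the kinase gene of the replication checkpoint, had 11.1, 10.2 and 8.64 CPM in knockout libraries and 14.9, 13.96 and 12.9 CPM in WT libraries (log2 fold change -0.47, SE 0.139, edgeR adjusted p = 0.031). Brca1 fell to 28.8 to 29.8 CPM in knockout libraries, against 34.1 to 39.6 CPM in WT libraries (-0.33, edgeR adjusted p = 0.0311). Both calls were close to the threshold. Exo1, an exonuclease gene, had no overlap (7.15 to 9.57 CPM in knockout libraries, 10.7 to 12.9 CPM in WT libraries, -0.44) and did not pass (edgeR adjusted p = 0.0616). Brca2, needed for homologous recombination, had 12.0, 12.9 and 11.03 CPM in knockout libraries and 11.6, 11.1 and 12.6 CPM in WT libraries (0.02, edgeR adjusted p = 0.929), with full overlap; its sign turned with counts thinned to the smallest library (-0.02) and with length and GC offsets (-0.18).

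Of the 32 calls, 17 held whichever library was left out: Cdc6, Mcm2, Mcm4, Mcm5, Mcm7, Mcm10, Gins1, Gins2, Rfc4, Rfc5, Tyms, Rrm1, Rrm2, Tk1, Ccne2, Chaf1a and Chaf1b. The count of members that fell was 20 without knockout replicate 1 and 20 without WT replicate 1. Calls became fewer among all tested genes too: 5.67% fell without knockout replicate 1 and 5.01% without WT replicate 1, against 9.61% with all libraries. Without knockout replicate 1 the calls of Brca1, Ccne1, Dut, E2f2, Gmnn, Mcm3, Pold2, Pole2, Prim1, Prim2, Rpa2 and Uhrf1 were lost (edgeR adjusted p from 0.0531 to 0.148). Without WT replicate 1 those of Ccne1, Cdc45, Chek1, Dut, Gins4, Mcm3, Pold2, Pole2, Prim1, Prim2, Rpa2 and Uhrf1 were lost (edgeR adjusted p from 0.0518 to 0.126). The 8 lost without knockout replicate 2 were Brca1, Chek1, Dut, E2f2, Gins4, Mcm3, Pold2 and Rpa2 (edgeR adjusted p from 0.0519 to 0.13), and the 8 lost without WT replicate 2 were Brca1, Chek1, Dut, E2f2, Mcm3, Pold2, Rpa2 and Uhrf1 (from 0.0525 to 0.115). Brca1, Chek1, Pold2 and Uhrf1 were lost without knockout replicate 3 (edgeR adjusted p from 0.056 to 0.104), and Brca1, Pold2 and Uhrf1 without WT replicate 3 (from 0.0748 to 0.0843). After Fen1 and Chaf1a, the longest exon overlaps with genes on the other strand were those of Gins2 (2758 bases), Rfc2 (952 bases), Ccne2 (609 bases) and Rfc5 (499 bases), whose levels are uncertain for this reason. Shorter overlaps with genes of more reads make other levels uncertain too. Rfc4 (1059 reads) shares 194 bases with Eif4a2 (16207 reads). Orc6 (1457 reads) shares 171 bases with Vps35 (26992 reads), and Cdc45 (1929 reads) 209 bases with Ufd1 (4618 reads). Of the 39 members whose exons overlap no other gene with reads 24 fell.

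Further replication genes outside the set were counted in the same fit. Of 52 further genes of replication and linked repair, 19 fell (36.5%, against 9.61% of all tested genes), 0 rose and 33 did not pass. Their median log2 fold change was -0.23. None was higher at an unadjusted p under 0.05, and 0 rose by DESeq2 or limma. Top2a, the topoisomerase gene of dividing cells, had 211, 219 and 207 CPM in knockout libraries and 314, 327 and 313 CPM in WT libraries (-0.58, SE 0.074, edgeR adjusted p = 1.48e-04). Rnaseh2b, a subunit gene of the nuclease that removes RNA from DNA, had 20.9, 21.9 and 21.8 CPM in knockout libraries and 37.9, 41.3 and 32.1 CPM in WT libraries (-0.78). Dbf4, which activates the kinase CDC7 at origins, had 24.7, 23.9 and 27.1 CPM in knockout libraries and 38.9, 39.0 and 37.9 CPM in WT libraries (-0.61). These 3 had the smallest adjusted p of the list, and in each the groups were apart. Of the 52, 24 were apart with the knockout lower, 3 with the knockout higher, and 25 overlapped. Among all tested genes 17.9% were apart with the knockout lower and 19% with it higher. Without WT replicate 1, 10 of the 52 and 5.01% of all tested genes fell.

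Mitosis genes, which share no member with the set, fell in 39 of 41 cases (95.1%, against 9.61% of all tested genes). Their median log2 fold change was -0.74. Birc5 (-1.02), Kif23 (-0.88) and Ube2c (-1.11) had the smallest adjusted p among them. The summed level of the mitosis genes divided by that of the replication genes was 0.501, 0.495 and 0.488 in knockout libraries and 0.643, 0.626 and 0.665 in WT libraries, so the groups were apart; the ratio has no test. Of 30 genes of G1 phase control and cell cycle brakes, 4 rose, 4 fell and 22 did not pass. The share that fell was 13.3%, near the 9.61% of all tested genes, of which 9.77% rose. Cdk6, a G1 kinase gene, had 199, 215 and 199 CPM in knockout libraries and 108, 108 and 108 CPM in WT libraries (0.92, SE 0.077, edgeR adjusted p = 4.77e-06). Cdkn1c (0.83), which encodes the inhibitor p57, and Rb1 (0.34), the retinoblastoma gene, also rose. The inhibitor genes Cdkn2c (-0.55) and Cdkn2d (-0.38) and the repressor gene E2f6 (-0.30) fell. Without knockout replicate 1 or WT replicate 1, 2 of the 30 rose and 1 fell, with Rb1, Cdkn2d and E2f6 among the calls lost; Rb1 and Cdkn2d were also lost without knockout replicate 2, where 2 rose, and E2f6 without knockout replicate 3 or WT replicate 2.

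**Figure D4:**
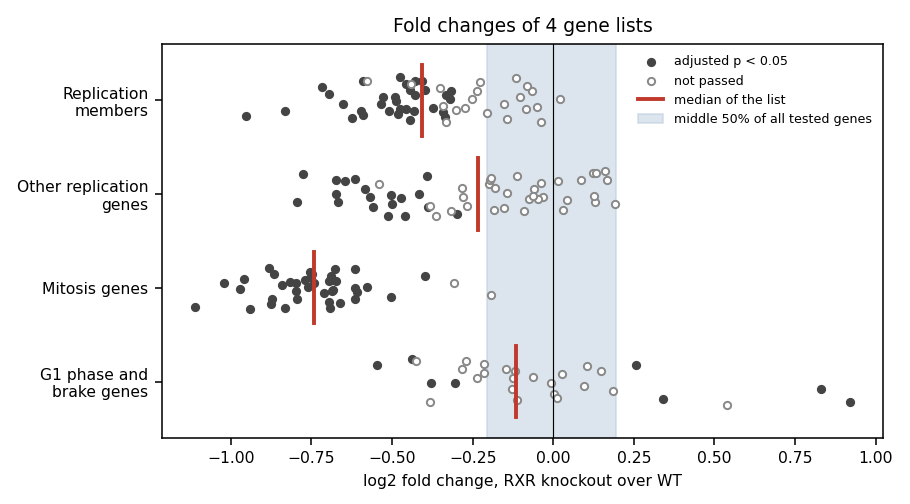
Log2 fold change of each tested gene, RXR knockout over WT (x axis), in 4 lists (rows), with filled points for genes past the edgeR threshold, a red line at the list's median and a band for the range from the 25th to the 75th percentile of all tested genes (-0.20 to 0.20). The median is -0.41 for the replication members, -0.23 for other replication genes, -0.74 for mitosis genes and -0.12 for G1 phase and brake genes.

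Markers of other marrow cells were measured beside the replication genes, in a fit where 9.61% of all tested genes fell and 9.77% rose. Of 10 stem and progenitor markers 1 fell, 5 did not pass and 4 were too low to test, with a median log2 fold change of 0.16 over the 6 tested. Their summed level was 10.4 to 11.6 CPM in knockout libraries and 12.1 to 16.3 CPM in WT libraries, but without Ctsg it was 8.06 to 9.89 CPM in knockout libraries and 7.71 to 10.2 CPM in WT libraries, with overlapping groups. Kit, the stem cell factor receptor gene, also chosen after its values were seen, had 1.92 to 2.88 CPM in knockout libraries and 1.56 to 1.96 CPM in WT libraries, and did not pass (0.51). Ctsg, the cathepsin G gene of granule-forming precursors, was the member that fell (1.74 to 3.32 CPM in knockout libraries, 4.38 to 8.30 CPM in WT libraries, -1.27), a call lost without WT replicate 1. Of 10 neutrophil markers 4 fell and 6 did not pass, with a summed level of 994 to 1106 CPM in knockout libraries and 1091 to 1236 CPM in WT libraries; Ngp, with the most reads, fell (-0.27), a call that held without WT replicate 3 and was lost without any other library. The early granule genes Mpo (27.4 to 30.9 CPM in knockout libraries, 51.3 to 57.1 CPM in WT libraries, -0.88), Elane (-1.10) and Prtn3 (-0.83), chosen after their values were seen, were the other 3 that fell. Of the 6 that did not pass, Retnlg (0.82, groups apart), Ltf (0.18) and Ly6g (0.18) were above 0. S100a8 (-0.076), S100a9 (-0.25) and Camp (-0.055) were below 0, and the median of the 10 was -0.16. The part of these markers in the lower replication genes was not tested. In the list of erythroid markers 3 of 10 had 0 reads in every library, 2 of 10 could be tested and both fell: Tfrc, the transferrin receptor gene that macrophages also express, had 102 to 108 CPM in knockout libraries and 240 to 255 CPM in WT libraries, and Epor, the erythropoietin receptor gene, 0.159 to 0.326 CPM in knockout libraries and 1.43 to 2.35 CPM in WT libraries (-3.08, on 13 reads over the knockout libraries and 63 over the WT libraries, edgeR adjusted p = 3.99e-04). The summed level of erythroid markers was 103 to 109 CPM in knockout libraries and 242 to 257 CPM in WT libraries, with 99.3% of their reads on Tfrc. Without Tfrc it was 0.318 to 0.815 CPM in knockout libraries and 1.70 to 2.35 CPM in WT libraries. Lymphoid markers summed to 26.5 to 32.3 CPM in knockout libraries and 47.1 to 55.4 CPM in WT libraries, mostly Ighm (-0.83), the 1 of 10 tested, and fibroblast markers to 4.72 to 11.1 CPM in knockout libraries and 10.2 to 12.2 CPM in WT libraries, with 38.8% of their reads on Col1a1 (-0.36, not passed) and 1 fall, that of Col3a1 (-1.91), among 3 tested. Epor and Col3a1 were named after their values were seen.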

How the data were processed

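PolyA RNA of 3 RXR knockout and 3 WT libraries was read single-end, from 100 ng of RNA per library, per the labels. TopHat2 2.0.7, DESeq and the build mm10 (GRCm38) are named in the submitters' processing notes; the sources used here do not give the counting program, annotation release or strand setting. The authors deposited raw counts per Ensembl gene, and a second table of log2 values that they normalized. The test was run on these counts in edgeR 4.0.16 under R 4.3.3, with TMM factors, filterByExpr by genotype (minimum count 10, minimum total 15), robust quasi-likelihood F test with genotype alone, Benjamini-Hochberg over all 12011 tested genes, threshold 0.05. An SE is the absolute log2 fold change over the square root of F. The fit was tested on simulated data. CPM per kb divides by the union of exons of protein-coding basic transcripts in GENCODE M21. Symbols matched 45106 of 45193 identifiers.

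The members and lists were chosen with earlier results of these data known. Named were all members, the marker with the most reads in each cell type list, and up to 3 genes that fell and 3 that rose by adjusted p in the other lists. Alternatives were RLE and upper-quartile factors, no filter, DESeq2 1.42.0, a CPM filter (1 or more in 3 or more libraries), counts thinned to 7880320 per library, offsets for length and GC, a block for the replicate number, the fit without each library, limma-voom (limma 3.58.1) and limma on log2 of the authors' values turned to linear plus a pseudocount of 1. Libraries of 1 genotype differed by more than sampling noise. Protein sequences were not used here.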

Additional observations from a re-analysis of the deposited data

How the results depend on the processing

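All 53 replication genes could be fitted in every alternative, and between 30 and 33 fell, with 0 that rose, under RLE or upper-quartile factors, no filter, the CPM filter, DESeq2, limma on the authors' log2 values or after voom, thinning, and length and GC offsets. Leaving out a library gave 20 to 31 replication genes and 10 to 19 other replication genes that fell. Among G1 phase and brake genes it gave 1 to 5 that fell and 2 to 4 that rose. The share of all tested genes that fell was 5.01% to 10.8% in these fits. Mcm6 passed with RLE factors (edgeR adjusted p = 0.049993, barely under the threshold), upper-quartile factors, DESeq2, limma-voom, thinning and the offsets. With the offsets Exo1, Pole and Rpa1 passed too, and Dut, Gins4, Pold2, Pole2 and Prim1 lost their calls. Rpa1 also passed with DESeq2 and thinning. Pold2 lost its call with DESeq2, Pold2 and Brca1 with no filter, and Chek1 with thinning. Deviations of same-numbered libraries from their genotype's mean correlated at 0.0528, -0.275 and -0.259, and 0 of 3 knockout libraries correlated best with its own number. Deviations of 3 libraries from their own mean sum to 0, so these correlations cannot decide whether same-numbered libraries share animals or days. The labels do not say. With the replicate number as a block, 20 replication genes and 12 other replication genes fell, and 1 G1 phase and brake gene fell and 2 rose. In that fit 5.54% of all tested genes fell. Thinning left 1 G1 phase and brake gene that fell. Among the 39 members with no exon overlap with another gene that has reads, an alternative chosen after seeing the data, 24 fell. Signs turned, each short of the threshold, for Brca2 (-0.024 thinned, -0.18 with offsets, -0.04 to 0.079 with a library left out), E2f1 (-0.198 to 0.027 with a library left out), Pold1 (-0.135 to 0.028), Pold3 (0.011, thinned), Rpa3 (0.015, offsets) and Rxra (-0.121, offsets); the cause was not tested. The marker gene Col1a1 ranged from -1.23, past the threshold without knockout replicate 3, to 0.037. Orc1 had the fewest reads of the set, which limits what could be detected for this gene.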
